A study of Rattus norvegicus with 5 samples.

Results

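Retinal cells of rats 4 weeks into streptozotocin diabetes were compared with those of rats 2 weeks into it, so both libraries are diabetic and neither is a control. The members were the cell barcodes of these 2 libraries with at least 200 detected genes and at most 20% of their UMIs (unique molecular identifiers, each standing for 1 captured RNA molecule) from mitochondrial genes. That gave 21021 barcodes, 8410 at 4 weeks and 12611 at 2 weeks, of 32983 that met the same limits in the 4 libraries analysed. The libraries are 2 of the 5 samples of the series.

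Both groups were Sprague-Dawley (SD) rats injected with streptozotocin at 45 mg/kg. They were taken as diabetic above a blood glucose of 200 mg/dL and were then kept on a diet rich in sugar. The labels give no age, sex or number of animals behind either library. Streptozotocin destroys the pancreatic beta cells that make insulin, so the model gives insulin-deficient diabetes. The retinas were dissociated in 0.25% trypsin with DNase at 37 °C for about 40 min and loaded on 10x Genomics droplets, which count the 3′ ends of polyadenylated RNA. The 2 libraries differ in diabetes duration, age, animal and preparation together, and these cannot be told apart.

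The retina is built around rod and cone photoreceptors, which turn light into an electrical signal and spend large amounts of ATP on ion pumping and protein synthesis. Bipolar and amacrine cells carry and shape that signal, Müller glia span the tissue and clear glutamate, potassium and water, and microglia are its resident macrophages. Several stress programmes recur in the values given below. ATF4 is a transcription factor whose translation increases when amino acids are short or proteins misfold, and it raises genes for amino acid transport, synthesis and tRNA charging. HIF factors raise glycolytic and angiogenic genes when oxygen is low. Immediate early genes such as Fos and Egr1 are transcribed within minutes of a stimulus, which can be physiological or come from handling of the tissue.

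After the top-scoring doublets were removed, 7744 cells remained at 4 weeks and 11125 at 2 weeks, holding 11762238 and 21273284 UMIs. Over all kept cells, most of them rods, those at 4 weeks were shallower, with a median of 902 UMIs against 1133 at 2 weeks. Their mitochondrial share was also lower, with medians of 2.12% and 7.43%. These medians need not hold in each class. The mitochondrial share of summed UMIs was lower at 4 weeks in rods (4.20% and 8.44%) and Müller glia (4.24% and 5.01%). In bipolar cells it was 15.6% and 15.7%. It was higher at 4 weeks in amacrine cells (10.1% and 7.98%), cones (14.1% and 11.5%) and microglia (7.65% and 6.68%). Rod RNA found in the other 5 compared classes, as free RNA or remaining doublets, was lower at 4 weeks in each of them. In Müller glia, rod genes stood at 8.22% of their level over all cells of the library at 4 weeks and at 28.9% at 2 weeks. In microglia they stood at 7.74% and 36.7%. The libraries shared 33 kept barcode sequences. Clusters took their class names from marker genes, and 6 classes had at least 50 cells in both libraries and were compared gene by gene.

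With 1 library a side there is no replicate and no test. Levels are given as CPM, UMI counts per 1000000 UMIs of the class. Ratios are log2 of the CPM at 4 weeks over the CPM at 2 weeks, with 0.5 counts added to each sum. The 95% intervals are exact binomial ones that cover counting error alone and leave out differences between animals and preparations. Genes entered a class's comparison if they averaged 20 CPM or more across both libraries and had 30 or more UMIs together. Lists are given by their counts above and below 0 and by their median.

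The first question was how the cell make-up differed. Rods made up 86.0% of kept cells at 4 weeks (6662 cells, 95% interval 85.2 to 86.8%) and 71.4% at 2 weeks (7939 cells, 70.5 to 72.2%). The gap was filled mainly by vascular cells and bipolar cells. Endothelial cells were 0.413% at 4 weeks (32 cells) and 3.83% at 2 weeks (426 cells). The cells named pericytes, a cluster led by Tagln, Pln, Acta2 and Myh11, were 0.0517% (4 cells) and 2.67% (297 cells). Another cluster, with Abcc9, Rgs5 and Kcnj8 among its leading genes, also scored nearest to pericytes. It was left unnamed because endothelial cells scored almost as high, and its 7 cells at 4 weeks and 39 at 2 weeks are not counted here. Among the cells other than rods, the log2 ratio was still -2.16 for endothelial cells and -4.49 for pericytes. Fewer vascular cells in the tissue and fewer released by dissociation cannot be told apart here.

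Bipolar cells were 3.51% at 4 weeks (272 cells) and 8.79% at 2 weeks (978 cells), a log2 ratio of -1.32. Mitochondrial genes held 15.6% of the UMIs of bipolar cells at 4 weeks and 15.7% at 2 weeks, near the 20% limit for cells, and the direction rested on that limit. With a limit of 10% the ratio turned to 0.31, and with a limit of 40% it was -0.44. Cones were 0.684% at 4 weeks (53 cells) and 1.62% at 2 weeks (180 cells). Microglia were 0.994% (77 cells) and 2.21% (246 cells). Both had log2 ratios near 0 among the cells other than rods, at -0.20 for cones and -0.11 for microglia. That total includes far more vascular cells at 2 weeks than at 4 weeks. Müller glia were 3.93% (304 cells) and 3.67% (408 cells), with a log2 ratio of 0.10 and an interval of -0.12 to 0.32. Among the cells other than rods, the shares of Müller glia and of the named amacrine cells were higher at 4 weeks, with ratios given further below. Amacrine cells were 3.29% (255 cells) and 2.26% (251 cells), but the direction rested on which clusters took the name. The log2 ratio of 0.55 became -0.33 when unnamed clusters nearest to amacrine cells were added. In 1 of these, Onecut1 was a leading gene and horizontal cells scored second. At a finer clustering the ratio was -0.44. There a cluster with Ppp1r17 and Calb2 among its leading genes (142 cells at 4 weeks, 47 at 2 weeks) went unnamed, because ganglion cells scored close.

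**Figure D1:**
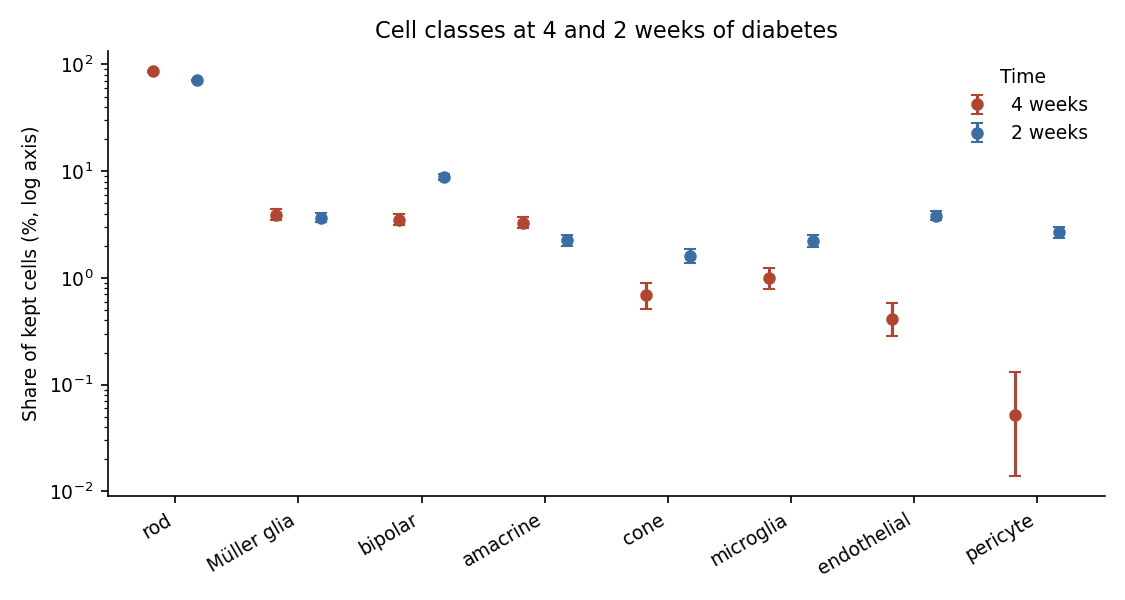
Share of kept cells in each class at 4 weeks (red, left) and 2 weeks (blue, right), on a log axis, with exact 95% binomial intervals (1 library each). Rods lie at 86.0% and 71.4%, while pericytes lie at 0.0517% and 2.67%.

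Rods gave the deepest comparison, with 6901583 UMIs at 4 weeks and 8816276 at 2 weeks. Of 5636 genes used, 4.93% were at least 2-fold higher at 4 weeks and 1.06% at least 2-fold lower. Over all genes used in rods, 71.7% were above 0, and the median gene stood at 0.26, so a rod gene has to be read against that shift, which TMM scaling takes out (-0.25). In the other 5 classes, between 44.4% of genes (microglia) and 53.6% (bipolar cells) were above 0, and medians lay between -0.11 and 0.04. The clusters that make up the rods were not shared evenly. The largest at 4 weeks held 4702 cells at 4 weeks and 662 at 2 weeks, and another held 568 and 5320, so list medians in rods are also given within clusters.

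The amino acid response was higher in rods at 4 weeks. Of 30 genes on the ATF4 list, 16 were used, 14 were higher at 4 weeks and 9 of them at least 2-fold, with a median log2 ratio of 1.17. None was 2-fold lower. Within the 5 rod clusters, the list median ran from 0.49 to 2.04, against -0.01 to 0.12 for all genes used there. The clusters were formed with these genes included, and Mthfd2 is among the leading genes of 2 of them and Trib3 of 1, so they are not an independent division. Trib3, a pseudokinase induced by ATF4, had 209 CPM at 4 weeks and 18.9 CPM at 2 weeks, a log2 ratio of 3.46 (95% interval 3.23 to 3.71). Mthfd2, a mitochondrial enzyme of one-carbon metabolism, had 104 CPM at 4 weeks and 14.4 CPM at 2 weeks. Slc38a2, a neutral amino acid transporter, had 236 and 45.4 CPM. All 3 were carried by many cells rather than a few, with Trib3 seen in 1168 rods at 4 weeks and 163 at 2 weeks.

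Trib3 and Mthfd2 had the largest ratios of the list in rods, and their promoters are shown because ATF4 binds DNA at composite CCAAT-enhancer sites. The windows run from 250 bases before to 50 bases after the RefSeq gene start in GRCr8 and are printed along the gene's own strand. Capitals mark the core TGATGNAA, searched on both strands. The Trib3 window is chr3:161275484-161275783 on the minus strand and holds 1 match, which begins at -21 from the gene start. The Mthfd2 window is chr4:117380301-117380600 on the minus strand and holds none.
Trib3: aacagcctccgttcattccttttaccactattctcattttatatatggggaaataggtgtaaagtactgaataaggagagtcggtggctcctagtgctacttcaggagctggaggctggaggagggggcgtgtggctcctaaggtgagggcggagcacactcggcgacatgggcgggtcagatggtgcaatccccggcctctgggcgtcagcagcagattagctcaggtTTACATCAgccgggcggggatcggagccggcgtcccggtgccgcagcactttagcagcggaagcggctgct
Mthfd2: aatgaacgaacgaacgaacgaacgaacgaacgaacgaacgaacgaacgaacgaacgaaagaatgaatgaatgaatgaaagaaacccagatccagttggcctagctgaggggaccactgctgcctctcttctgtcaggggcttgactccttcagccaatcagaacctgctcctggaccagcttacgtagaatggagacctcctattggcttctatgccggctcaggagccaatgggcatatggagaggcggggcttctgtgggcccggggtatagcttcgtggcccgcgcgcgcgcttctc
The core was present in 6 of the 27 list promoters found in the table (22.2%), against 3.82% of all 27457 promoters. The windows of Slc38a2 and Sesn2 held no match. A match describes letters in the window and does not show binding.

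The stress regulators of the list were higher too. Atf3, an ATF family repressor, had 96.2 CPM at 4 weeks and 25.2 CPM at 2 weeks. Cebpb, a dimer partner of ATF4, had 48.7 and 13.3 CPM, and Sesn2, a leucine sensor that restrains mTORC1, had 33.8 and 9.19 CPM. Atf4 itself had 2761 and 2074 CPM, a log2 ratio of 0.41, and Ddit3, the pro-apoptotic factor CHOP, had 312 and 189 CPM. Chac1, which degrades glutathione, was under the level filter, with 94 UMIs at 4 weeks and 2 at 2 weeks. The 2 used members that were lower were Ppp1r15a, which restores translation by dephosphorylating eIF2α, at -0.90, and Vldlr at -0.45.

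**Figure D2:**
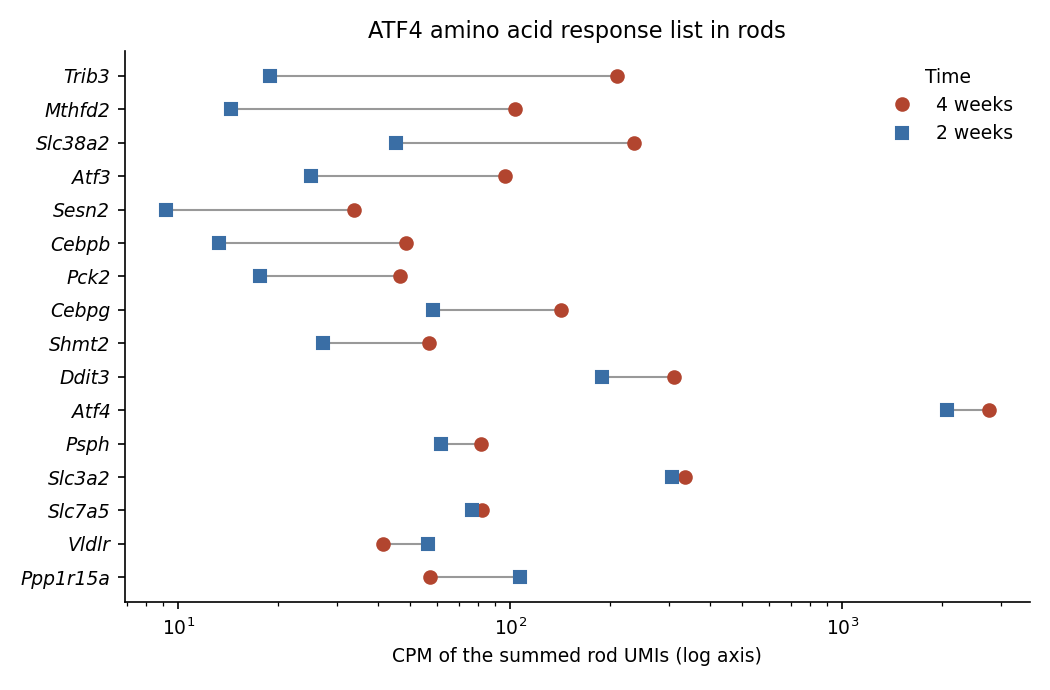
CPM of the summed rod UMIs (log axis) for the 16 used genes of the ATF4 list, 4 weeks as red circles and 2 weeks as blue squares, 1 library each. The red circle lies to the right in 14 of 16 genes, with the widest gap for Trib3.

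Aminoacyl-tRNA synthetases, which charge tRNAs with amino acids, were higher in rods taken as a whole. All 18 of 18 used were above 0, where 71.7% of all rod genes were, with a median of 0.72 and 3 at least 2-fold higher. Yars had 76.4 CPM at 4 weeks and 32.6 CPM at 2 weeks, Tars 80.7 and 35.2 CPM, and Cars 45.1 and 20.1 CPM. The smallest ratio of the list was 0.05, under the 0.26 of the median rod gene. Within clusters the median of this list ran from 0.51 to 0.95, and 1 or 2 members were lower in each cluster. Genes of endoplasmic reticulum chaperones and degradation did not stand apart, with a median of 0.23 over 18 genes and all genes at 0.26. Within clusters this median ran from 0.0063 to 0.18. The exception was Herpud1, a component of the degradation machinery and a target of ATF6 and ATF4, with 222 and 59.5 CPM (log2 ratio 1.90, 95% interval 1.76 to 2.05).

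Genes outside these lists also had large ratios in rods. Ripply3, a transcriptional co-repressor, had 332 UMIs (48.1 CPM) in rods at 4 weeks and 2 UMIs (0.227 CPM) at 2 weeks. It was detected in 318 rods and 2 rods, and its level in cones was 185 CPM at 4 weeks and 107 CPM at 2 weeks. Lnx1, a ubiquitin ligase that targets Numb, had 67.2 and 2.50 CPM. Khdrbs3, a splicing regulator, had 121 and 13.3 CPM. Sik1, a kinase induced by cyclic AMP, had 181 and 12.5 CPM in rods and was at least 2-fold higher in 5 of the 6 classes. Zg16b had 180 and 12.8 CPM, Rhd 73.9 and 5.33 CPM, and the log2 ratio of Gltpd2 was 2.39. These genes kept their direction within each of the 5 rod clusters.

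Egr1, an immediate early transcription factor, was far lower in rods, with 13.6 CPM at 4 weeks (94 UMIs in 83 rods) and 515 CPM at 2 weeks (4543 UMIs in 2636 rods). Its log2 ratio was -5.23 (95% interval -5.55 to -4.95) and lay between -4.97 and -3.96 within the clusters. The other immediate early genes were divided in rods. Of 9 used, Egr1 included, 5 were higher and 4 lower, with a median of 0.17 that ran from -0.34 to 0.32 within clusters. Jun had 163 and 77.6 CPM and was higher in each cluster. Fos had 188 and 117 CPM, a log2 ratio of 0.68, but stood at -0.36 in 1 cluster. Junb had 56.7 and 109 CPM and was lower in each cluster, and Dusp5, a phosphatase of MAP kinases, had a log2 ratio of -1.07. Il4r, an interleukin receptor chain, had 4 UMIs at 4 weeks and 369 UMIs at 2 weeks, a log2 ratio of -6.01 (95% interval -8.06 to -4.81). Tnip1, an inhibitor of NF-kB signalling, had 33.3 and 104 CPM.

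Genes of the light response were lower, and unevenly so. Of 22 used genes on the rod phototransduction list, 16 were lower and 6 higher, with a median of -0.24 against 0.26 for all genes. Within clusters the median ran from -0.36 to -0.21. Gnat1, the alpha subunit of rod transducin, had 3040 CPM at 4 weeks and 6800 CPM at 2 weeks (log2 ratio -1.16, 95% interval -1.18 to -1.14). Sag, the rod arrestin that ends the light signal, had 4541 and 8012 CPM. Gngt1, the gamma subunit of transducin, had 23619 and 38190 CPM. Abca4, which clears retinal from the disc membrane, had 208 and 443 CPM. Grk1, a photoreceptor kinase, went the other way with 644 and 342 CPM, as did Gucy2d, a guanylate cyclase, with 49.0 and 26.0 CPM. Rbp3, the retinoid carrier of the interphotoreceptor matrix, had 24.3 and 65.8 CPM. Zmynd10, needed to assemble dynein arms, had 38.0 and 107 CPM.

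Mitochondrial transcripts formed the other large decrease. All 13 mitochondrially encoded genes were lower at 4 weeks, from -2.77 for Mt-nd4l to -0.68 for Mt-nd2, with a median of -1.20. Together they held 4.20% of rod UMIs at 4 weeks and 8.44% at 2 weeks. This is the quantity on which cells were filtered, and the difference shrank within clusters, where the median ran from -0.61 to 0.05. Nuclear genes of the respiratory chain were lower in 32 of 37 used and higher in 5, with a median of -0.50. Ndufa4, a subunit of cytochrome oxidase, had 2524 and 5444 CPM. Within clusters this median ran from -0.33 to -0.06. Cytosolic ribosomal protein genes were lower in 71 of 77, with a median of -0.45 that ran from -0.40 to -0.06 within clusters. The mitochondrial share of the library moved with all 3 groups, and its part in them was not tested.

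Glycolysis genes in rods were split around 0, with 7 of 14 higher and 7 lower. Their median of 0.01 was below the 0.26 of all rod genes, stood at -0.24 with TMM scaling, and ran from -0.03 to 0.24 within clusters. Hk2, the hexokinase that photoreceptors use, had 4426 CPM at 4 weeks and 3007 CPM at 2 weeks. Vegfa, the angiogenic growth factor, had 107 and 36.1 CPM in rods (log2 ratio 1.57, 95% interval 1.38 to 1.76). Tpi1, at 81.1 and 30.3 CPM, and Pkm, at 81.4 and 195 CPM, moved in opposite directions, and both did so in every class.

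**Figure D3:**
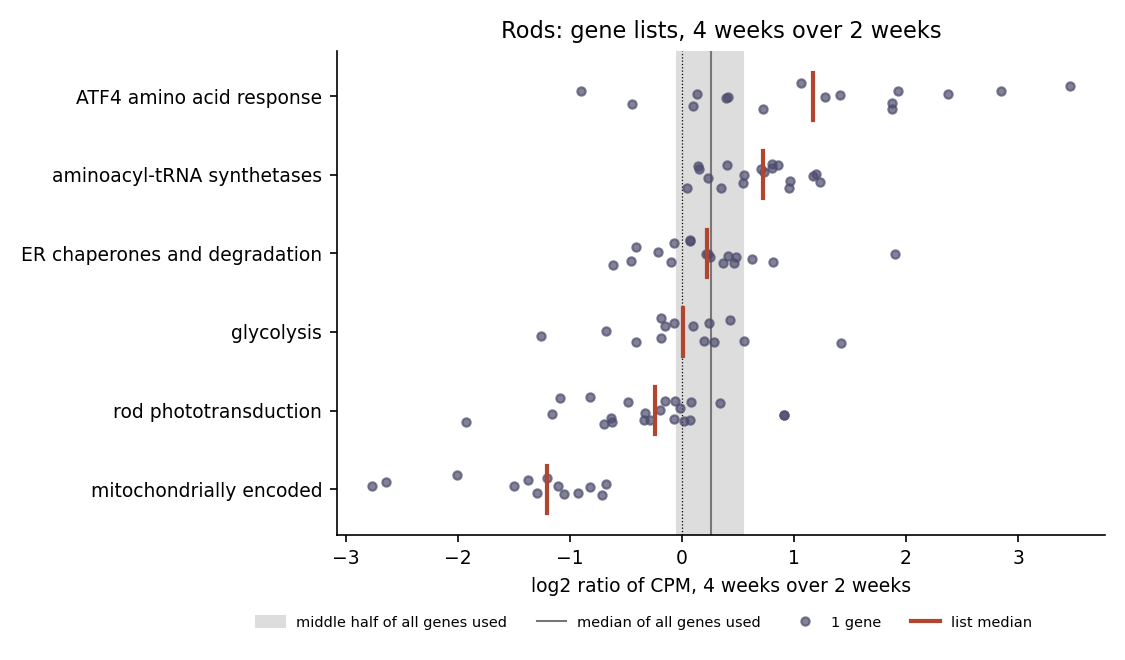
Log2 ratio of CPM in rods, 4 weeks over 2 weeks, for the used genes of 6 lists (dots) with the list median (red bar), the interquartile range of all 5636 genes used (grey band) and their median (grey line). The ATF4 list has a median of 1.17, and the mitochondrially encoded list lies wholly below 0 with a median of -1.20.

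Cones were few, with 53 cells and 216621 UMIs at 4 weeks and 180 cells and 542140 UMIs at 2 weeks. Of 3311 genes used, 2.57% were at least 2-fold higher and 4.5% at least 2-fold lower. The genes with the clearest increase were Ypel4, at 120 CPM and 14.8 CPM, the aminoacylase Acy1, at 360 and 84.8 CPM, and Rbp4, at 2548 and 826 CPM. Rbp4 encodes a retinol carrier and was detected in 49 of the cones at 4 weeks and 140 at 2 weeks. Eno3, a muscle-type enolase, was lower at 83.1 and 325 CPM, and so was Crym, which binds thyroid hormone, at 254 and 622 CPM.

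Of 12 used genes on the cone opsin and phototransduction list, 10 were lower and 2 higher, with a median of -0.46. None of them reached 2-fold. Opn1mw, the middle-wavelength opsin, had 499 and 775 CPM (log2 ratio -0.63, 95% interval -0.95 to -0.33), while Opn1sw, the short-wavelength opsin, had 2017 and 1876 CPM. Arr3, the cone arrestin, had 1883 and 2689 CPM, and Gnat2, the cone transducin, had 5761 and 8169 CPM. Several of these genes also named the cluster. Glycolytic genes were higher in 11 of 12, with a median of 0.19. Aldoc had 1149 and 684 CPM and Eno1 5424 and 3696 CPM. Egr1 was lower in cones as in rods, at 23.1 and 491 CPM, but its 5 UMIs at 4 weeks came from 1 cell. Jun was higher, at 208 and 57.2 CPM.

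Müller glia held 304 cells at 4 weeks and 408 at 2 weeks, with 950722 and 1006358 UMIs. Of 5976 genes used, 2.04% were at least 2-fold higher at 4 weeks and 3.48% at least 2-fold lower. Rod phototransduction genes were lower in 18 of 19, all 18 at least 2-fold, beside the lower rod RNA in this class given above. Genes of the Müller identity moved little. The homeostasis list had 7 genes higher and 9 lower with a median of -0.04. Apoe, the lipoprotein that carries lipid between retinal cells, had 34637 CPM at 4 weeks and 25356 CPM at 2 weeks. Aqp4, the water channel of the endfeet, had 698 and 967 CPM, and Car14, a membrane carbonic anhydrase, had 423 and 711 CPM.

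Part of the hypoxia list was higher in Müller glia. Slc16a3, the lactate exporter MCT4, had 81.0 CPM at 4 weeks and 12.9 CPM at 2 weeks (95% interval of the log2 ratio 1.79 to 3.62). Vegfa had 874 and 462 CPM (log2 ratio 0.92, 95% interval 0.75 to 1.09), and this class had the highest Vegfa level of the 6. Slc2a1, the glucose transporter GLUT1, had 357 and 233 CPM. Ankrd37, a HIF target, had 34.7 and 10.9 CPM, and P4ha2, a collagen prolyl hydroxylase, had 42.1 and 21.9 CPM. Over the list, 13 of 19 used genes were higher, 2 at least 2-fold, and the median was 0.27 against -0.02 for all genes. The 6 lower members included Hk2, at 151 and 271 CPM, and Hif1a, with a log2 ratio of -0.64.

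Slc16a3 and Ankrd37 had the largest ratios of the hypoxia list in Müller glia, and their promoters are shown because HIF factors bind the short core ACGTG. The windows are placed as above in GRCr8, and capitals mark the core on either strand. The Slc16a3 window is chr10:106712078-106712377 on the plus strand and holds no match. The Ankrd37 window is chr16:53001257-53001556 on the plus strand and holds 4 matches, 2 of which overlap because CACGTG reads alike on both strands.
Slc16a3: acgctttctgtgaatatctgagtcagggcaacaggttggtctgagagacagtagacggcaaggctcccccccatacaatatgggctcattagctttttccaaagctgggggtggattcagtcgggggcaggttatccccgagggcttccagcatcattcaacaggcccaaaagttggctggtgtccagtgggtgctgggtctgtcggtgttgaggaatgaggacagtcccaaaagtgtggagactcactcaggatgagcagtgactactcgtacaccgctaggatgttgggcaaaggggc
Ankrd37: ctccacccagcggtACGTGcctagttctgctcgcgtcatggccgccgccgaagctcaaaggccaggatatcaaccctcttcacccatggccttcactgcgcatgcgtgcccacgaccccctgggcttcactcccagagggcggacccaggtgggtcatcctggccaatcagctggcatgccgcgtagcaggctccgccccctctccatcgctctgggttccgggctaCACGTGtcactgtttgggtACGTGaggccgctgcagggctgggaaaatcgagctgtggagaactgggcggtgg
The core was present in 14 of 21 list promoters found (66.7%), against 19.7% of all promoters. The P4ha2 window held 2 matches and the Vegfa window none.

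The other genes named for an increase in Müller glia were Lmcd1, a LIM domain protein, at 86.2 CPM and 13.9 CPM, and Ass1, which makes argininosuccinate, at 144 and 45.7 CPM. Krt15, Greb1l, Retsat, which saturates retinol, and the neuropeptide gene Gal were also higher. Gal had 243 and 98.4 CPM and Retsat 67.3 and 18.9 CPM. Fxyd7, a regulator of the sodium pump, had 293 and 117 CPM. Glial reactivity genes did not share a direction, with 4 of 10 higher and 6 lower. Gfap, the intermediate filament of reactive glia, had 79.9 and 29.8 CPM, but it came from 6 cells at 4 weeks and 9 cells at 2 weeks. Lcn2 came from 8 and 5 cells. Timp1, an inhibitor of matrix proteases, was more widely detected, in 35 and 27 cells, with 74.7 and 29.8 CPM. Cntf, a neuroprotective cytokine, had 44.2 and 107 CPM.

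Markers of retinal pigment epithelium in this class summed to 6.31 CPM at 4 weeks, with 5 of 8 detected, and to 1375 CPM at 2 weeks, with 7 of 8 detected. Endothelial markers summed to 2508 and 3779 CPM, with 4 and 8 of 8 detected. The part of either in the genes lower at 4 weeks was not tested. Among these genes, Cldn16, a claudin, had 1 UMI at 4 weeks and 46 at 2 weeks, a log2 ratio of -4.87 (95% interval -10.78 to -2.89), with no cell at 2 weeks holding over 4.35% of its UMIs. Prss56, a serine protease gene of Müller glia linked to eye size, had 1 and 39 UMIs and was under the level filter. Cdkn1b, which encodes the cell cycle inhibitor p27, had 273 and 605 CPM. Sesn3, a FoxO-induced sestrin, had 45.2 and 126 CPM, and Col9a3, a cartilage-type collagen chain, had 17.9 and 69.6 CPM. Junb had 202 and 522 CPM. Aminoacyl-tRNA synthetases were higher in 16 of 18, with a median of 0.31 and none at 2-fold, while the ATF4 list as a whole had 8 of 15 higher and a median of 0.08.

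Microglia differed most by share of genes. There were 77 microglia with 308745 UMIs at 4 weeks and 246 with 784847 UMIs at 2 weeks. Of 4049 genes used, 4.45% were at least 2-fold higher and 17.8% at least 2-fold lower at 4 weeks. The class consisted of a deep cluster (39 cells at 4 weeks, 103 at 2 weeks) and a shallow one (38 and 143), and list medians are given in each where at least 5 genes could be used there. Ccl4, Cxcl2, Ccl3 and Il1b are among the leading genes of the deep cluster. Inflammatory transcripts were lower and lysosomal ones higher.

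Of 16 used genes on the inflammatory list, 15 were lower, 11 of them at least 2-fold, with a median of -1.71. Ccl4, a chemokine that draws leukocytes, had 77.7 CPM at 4 weeks (24 UMIs in 4 cells) and 3635 CPM at 2 weeks (2853 UMIs in 88 cells). Cxcl2, which draws neutrophils, had 152 CPM from 3 cells and 2321 CPM from 82 cells. Ccl3 had 651 and 2315 CPM, and Il1b, the inflammasome cytokine, had 301 and 1074 CPM. Nfkbia, the feedback inhibitor of NF-kB, had 680 and 2124 CPM, and Icam1, an adhesion molecule, had 87.5 and 452 CPM. Tnf was closer, at 45.3 and 87.9 CPM (log2 ratio -0.92, 95% interval -1.90 to -0.11). Cxcl10, an interferon-induced chemokine, was the 1 member higher at 4 weeks, at 324 and 102 CPM. The list median was -1.88 in the deep cluster and -1.81 in the shallow one.

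Immediate early genes were lower in all 17 used, 14 of them at least 2-fold, with a median of -2.26. In the deep and shallow clusters the median was -2.37 and -2.34. Egr1 had 405 and 3578 CPM in microglia, Junb 1182 and 6168 CPM, and Zfp36, which destabilises cytokine mRNAs, 220 and 1274 CPM. Heat shock genes were lower in 14 of 15, with a median of -1.24 that was -1.56 in the deep cluster and -0.50 over 6 genes in the shallow one. Hspa1b had 25.9 and 545 CPM and Dnajb1 93.9 and 477 CPM, whereas Hspb1 had 133 CPM from 4 cells and 29.3 CPM from 7 cells. Gadd45b, a stress gene, had 29.1 and 634 CPM.

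Lysosome and lipid handling genes were higher in 15 of 17, 8 of them at least 2-fold, with a median of 0.79. Cd68, a lysosomal membrane protein of phagocytes, had 230 CPM at 4 weeks and 33.1 CPM at 2 weeks (log2 ratio 2.78, 95% interval 2.13 to 3.50). Apoe had 13487 and 4473 CPM, Ctsb, a cysteine protease, 2219 and 685 CPM, Ctsd, an aspartic protease, 1088 and 456 CPM, and Grn, a lysosomal chaperone precursor, 1749 and 729 CPM. Abca1, a cholesterol exporter, had 64.8 and 15.3 CPM. Axl, a receptor for engulfing dead cells, had 104 and 7.64 CPM. The 2 lower members were Fabp5, a fatty acid carrier, and Ctss. The list median was 0.71 in the deep cluster and 0.87 in the shallow cluster.

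Complement C1q chains were higher, with C1qc at 3883 and 1714 CPM and C1qa at 6024 and 3984 CPM. Homeostatic receptor genes had no shared direction, with 6 of 12 higher and a median of -0.04, which was -0.18 in the deep cluster. P2ry12, a purine receptor, had 113 and 181 CPM, and Cx3cr1, the fractalkine receptor, had 324 and 219 CPM. CPM values in microglia are shares of all UMIs of the class, rod RNA included. Rod genes stood there at 7.74% of their library level at 4 weeks and 36.7% at 2 weeks. Small increases have to be read against that, and the microglial marker Tmem119 reversed with free RNA subtracted. Cholesterol synthesis genes were lower in 9 of 11, 8 of them at least 2-fold, with a median of -1.40, which was -2.03 in the deep cluster. Hmgcs1 had 6.48 CPM from 1 cell and 147 CPM from 60 cells, and Idi1 29.2 and 479 CPM. The exceptions were Ebp and Pmvk.

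Markers of other leukocytes moved with Ccl5 and Cxcr4, which had the lowest ratios, and their part was not tested. Both were confined to the shallow cluster apart from 1 UMI of Cxcr4. There, Ccl5 had 0 UMIs at 4 weeks and 606 at 2 weeks, and Cxcr4 had 0 and 134. The 606 UMIs came from 6 of the 143 cells at 2 weeks. With 38 cells at 4 weeks, how far Ccl5 was lower cannot be told. Of 6 lymphocyte markers measured, 0 and 5 had a UMI in the shallow cluster, with sums of 0 CPM and 460 CPM. In the deep cluster 0 and 2 had one, with sums of 0 and 3.54 CPM. The 7 other myeloid markers summed to 929 and 2958 CPM in the shallow cluster and to 918 and 1226 CPM in the deep one. With at least 1000 UMIs per cell, a separate unnamed cluster scored nearest to lymphocytes, with Cxcr4, Cd8a, Cd3d and Nkg7 among its leading genes. It held 0 cells at 4 weeks and 16 at 2 weeks, and other myeloid cells scored almost as high. The lower Ccl4, Il1b and Fos and the higher Apoe and C1qc were seen in both the deep and the shallow cluster. These clusters need not be single states. With at most 10% mitochondrial UMIs, a microglial cluster led by Cxcl2, Ccl4, Ccl3 and Il1b held 5 cells at 4 weeks and 90 at 2 weeks. The other microglial cluster at that limit held 58 and 79. The part of this mix in the lower inflammatory and immediate early genes was not tested.

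**Figure D4:**
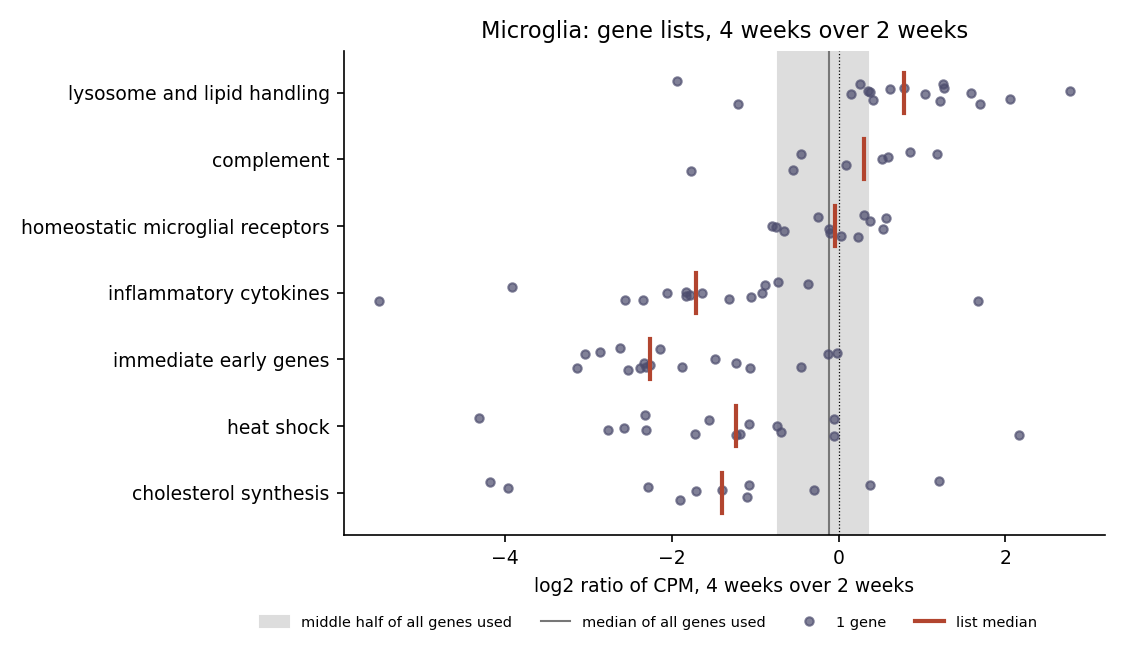
Log2 ratio of CPM in microglia, 4 weeks over 2 weeks, for the used genes of 7 lists (dots) with the list median (red bar), the interquartile range of all 4049 genes used (grey band) and their median (grey line). Lysosome and lipid handling has a median of 0.79, and the inflammatory list has a median of -1.71 with Cxcl10 as its 1 gene above 0.

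Bipolar cells held 272 cells and 855190 UMIs at 4 weeks and 978 cells and 2906605 UMIs at 2 weeks. Of 5616 genes used, 2.19% were at least 2-fold higher and 2.23% at least 2-fold lower. Aminoacyl-tRNA synthetases were higher in 17 of 20, with a median of 0.55, led by Yars at 62.0 and 28.6 CPM and Cars at 45.6 and 21.7 CPM. This median was 0.64, 0.36 and 0.61 in the 3 clusters that could be compared. The ATF4 list was split, with 6 of 13 higher and a median of -0.05. Genes for glucose entry and lactate export were higher, with Slc2a1 at 98.2 and 43.0 CPM and Slc16a3 at 80.7 and 38.5 CPM. Pdk1, a kinase that inhibits pyruvate dehydrogenase, had 49.1 and 17.2 CPM.

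Genes of the ON cascade, by which bipolar cells invert the photoreceptor signal, were lower in 9 of 10, with a median of -0.23 and none at 2-fold. Trpm1, its cation channel, had 288 and 559 CPM, and Pcp2, which modulates the G protein, had 1299 and 2253 CPM. The mix of bipolar clusters also differed between the libraries, and the list median was -0.47, -0.55 and 0.18 in the 3 clusters. Isl1, a factor that specifies ON bipolar cells, had 170 and 435 CPM, and Hcn4, a pacemaker channel, 31.6 and 94.3 CPM. Both were lower in each of the 3 clusters, as were Sparcl1, a synapse-organising matrix protein, at 108 and 409 CPM, the amino acid transporter gene Slc3a1, with a log2 ratio of -2.42, and Srrm4, a neuronal splicing factor, at 85.4 and 222 CPM. Crhbp, which binds corticotropin-releasing hormone, was higher at 49.1 and 9.63 CPM, and so was Atp6ap1, an accessory part of the proton pump, at 286 and 124 CPM. Col11a1 was higher over the class but not within each cluster.

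Amacrine cells were 255 with 1555787 UMIs at 4 weeks and 251 with 1439194 UMIs at 2 weeks. Of 5769 genes used, 2.13% were at least 2-fold higher and 3.02% at least 2-fold lower. Their make-up differed. A cluster led by C1ql2 and Gad1 held 99 cells at 4 weeks and 193 at 2 weeks, while a cluster led by Ppp1r17 and Calb2 held 156 and 58. Slc6a9, the glycine transporter, had 431 and 192 CPM, and Gad2, which makes GABA, had 319 and 566 CPM. Within the clusters both kept their direction, with log2 ratios of 0.48 to 0.56 and -0.80 to -0.45. The part of the mix in either was not tested. Several genes of the largest ratios came from a handful of cells. Adcyap1, the neuropeptide PACAP, came from 1 cell at 4 weeks and 2 cells at 2 weeks, Tac3 from 3 and 1, Alox5ap from 2 and 5, and Sncg, a ganglion cell marker, from 2 and 8.

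The immediate early genes were the clear group in amacrine cells, with 10 of 11 higher, 6 of them at least 2-fold, and a median of 1.27. The median was 1.30 in the Gad1 cluster and 2.34 in the Ppp1r17 cluster. Fos had 641 CPM at 4 weeks (998 UMIs in 160 cells) and 63.9 CPM at 2 weeks (92 UMIs in 41 cells), a log2 ratio of 3.32 (95% interval 3.02 to 3.65). Fosb had 116 and 9.73 CPM, Jun 345 and 73.7 CPM, Egr1 288 and 72.3 CPM, and Dusp1, a phosphatase that ends MAP kinase signalling, 153 and 40.3 CPM. Genes lower in both clusters included Six3, a homeobox factor of inner retinal neurons, at 165 and 544 CPM, and Mab21l2 at 57.9 and 217 CPM. Grin2c, an NMDA receptor subunit, had 5.14 and 39.6 CPM, of which the Ppp1r17 cluster held 0 UMIs at 4 weeks and 1 UMI at 2 weeks.

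Set side by side, the immediate early genes differed by class in direction. Egr1 was lower at 4 weeks in rods, cones and microglia, with log2 ratios of -5.23, -4.28 and -3.14, and at -0.75 in Müller glia, where it was close to 0 once free RNA was subtracted. It was higher in bipolar cells at 1.01 and in amacrine cells at 1.99. Jun was lower in microglia at -2.14 and higher in the other 5 classes. The differences between classes were not tested, since each class has 1 library a side.

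**Figure D5:**
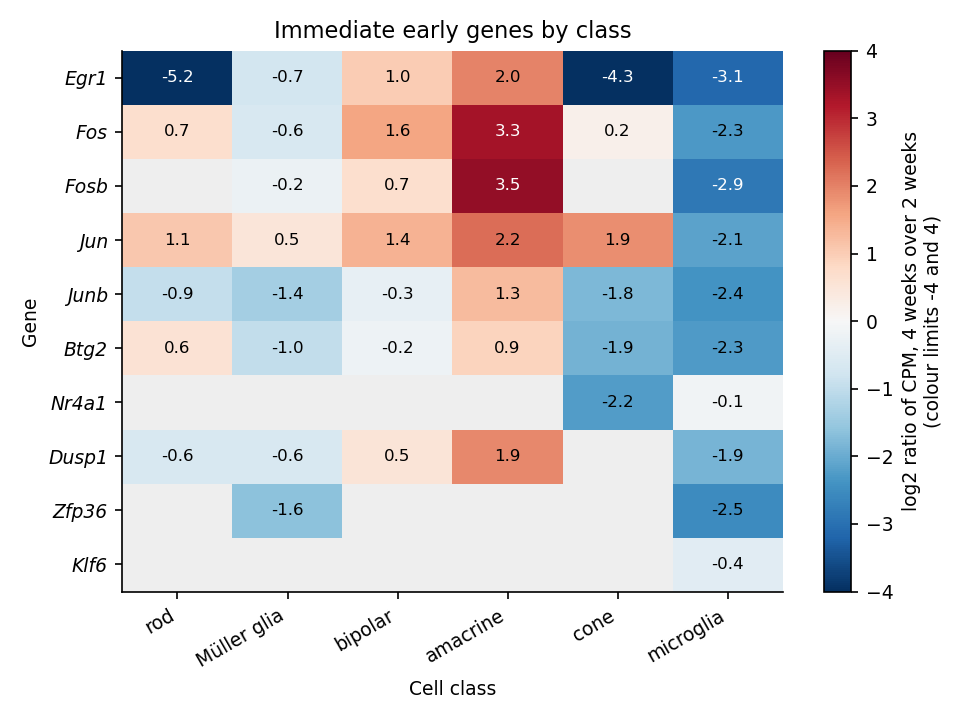
Log2 ratio of CPM, 4 weeks over 2 weeks, for immediate early genes (rows) in the 6 classes (columns), red for higher and blue for lower, with grey cells where the gene was not used in that class. Fos stands at 3.32 in amacrine cells and -2.31 in microglia, and Egr1 is lowest in rods.

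The amino acid genes also differed by class. The ATF4 list had a median of 1.17 in rods, between -0.05 and 0.15 in bipolar cells, Müller glia, amacrine cells and cones, and -0.96 in microglia, where 9 of 11 used genes were lower. Cebpb stood at 1.87 in rods, 1.03 in bipolar cells, -2.08 in microglia and -2.36 in Müller glia. Aminoacyl-tRNA synthetases had medians of 0.72 in rods, 0.55 in bipolar cells, 0.31 in Müller glia, -0.02 in cones, 0.23 in amacrine cells and -0.45 in microglia. Nuclear respiratory chain genes were lower in 29 of 37 used in both Müller glia and bipolar cells and in 32 of 37 in amacrine cells, with medians of -0.27, -0.26 and -0.24. In cones the median was -0.05, and in microglia 18 of 36 were lower. Rod RNA was lower at 4 weeks in each class other than rods, and these medians are given without subtracting it. In Müller glia rod genes stood at 8.22% of their library level at 4 weeks and 28.9% at 2 weeks. Proteasome genes, by comparison, had medians between -0.16 and 0.23 over the 6 classes.

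Some genes differed alike in every class. Of 2394 genes used in all 6 classes, 8.56% were higher in all and 13% were lower in all. Of 3401 genes used in 5 or 6 classes, 0.235% were at least 2-fold higher in at least 5, and 0.412% at least 2-fold lower. The higher ones with a symbol were Nmt1, which myristoylates proteins, Tpi1, Rps19, Pomp, a proteasome assembly factor, Sik1 and RT1-A2. The lower ones included H3f3b, Pkm, Eef1a1, Rps10, Rpl30 and 1 of the 2 genes carrying the symbol Uqcrb. Many of these belong to families with near-identical copies in the rat genome, and Pkm and Eef1a1 stood at or under 242 and 506 CPM in every compared class and library, which is low for such genes. They are reported as uncertain. Gnat1 and Abca4 were also lower in at least 5 classes, beside the lower rod RNA outside rods. RT1-A2 was higher in microglia, at 1901 and 461 CPM, while RT1-A1 was lower, at 71.3 and 460 CPM. Both are class I histocompatibility genes of a family of near-identical copies, so their separate values are uncertain.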

How the data were processed

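The deposited files hold UMI counts per gene and cell barcode, made by the authors with Cell Ranger 3.0.1 on Rnor_6.0, per the submitters' processing notes. No count was normalized before deposit. The members, gene lists and rules were chosen with earlier results of these data known. Barcodes under 200 genes or above 20% mitochondrial UMIs were dropped, and the highest Scrublet scores were removed as doublets. Cells of 4 libraries were clustered together (scanpy 1.11.5, 2000 variable genes, 30 principal components, Leiden resolution 1.0), and clusters were named from markers. Raw counts were summed per library and class and divided by the class total. Ratios have 0.5 counts added. Named genes were the 10 per direction and class (5 where a library held under 200 cells) whose interval lay farthest from 0, with limits on level and on single cells, plus up to 6 members of each list described; a few others were named after their values were seen. Intervals are exact binomial at 95%, and they cover counting error only. No p-value was computed, since each time is 1 library. The ratio calculation was tested on simulated data. TMM factors came from edgeR 4.0.16. Promoters are from RefSeq GRCr8, used only by symbol.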

Additional observations from a re-analysis of the deposited data

Results flagged for a closer look

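Of 287 list genes used, 10 were at least 2-fold higher in 1 class and at least 2-fold lower in another with both intervals apart from 0, and the 6 with the widest gap are given here. These differences between classes were not tested, since each class has 1 library a side. Values are log2 ratios of CPM, 4 weeks over 2 weeks. Egr1 stood at 1.99 in amacrine cells and -5.23 in rods. Fosb stood at 3.52 in amacrine cells and -2.86 in microglia, Fos at 3.32 and -2.31, and Jun at 2.22 and -2.14 in the same classes. Cebpb, a dimer partner of ATF4, stood at 1.87 in rods and -2.36 in Müller glia. Apoe, made mainly by Müller glia in the retina, stood at 1.59 in microglia and -2.6 in amacrine cells.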

How the results depend on the processing

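No paired analysis was possible because each time is 1 library. Over all alternatives, 861 gene values moved by less than their counting interval, 296 moved by more, and 8 called ones reversed. For list medians, 344 stayed, 34 moved and 2 reversed. All values below are log2 ratios unless called counts, and the causes of the shifts were not tested. With at most 10% mitochondrial UMIs, the shares were 0.22 for rods, -0.38 for Müller glia, 0.31 for bipolar cells, -0.47 for amacrine cells, -2.51 for cones and -4.05 for endothelial cells. With at least 1000 UMIs per cell they were 0.43, 0.58, -1.08, 0.94 and -0.76 in the first 5 of these classes and -0.56 in microglia. Among cells other than rods they were 1.58 for amacrine cells, 1.13 for Müller glia, -0.11 for microglia, -0.20 for cones, -0.29 for bipolar cells and -2.16 for endothelial cells. Rods stood at 0.32 with doublets kept, and bipolar cells at -0.44 with at most 40% mitochondrial UMIs. Amacrine cells stood at -0.44 at Leiden resolution 2.0, where the cluster with Ppp1r17 and Calb2 went unnamed, and at -0.33 with unnamed clusters added.

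Counts of genes past the fold limit moved mostly by construction, since fold and level limits change what is counted. In rods they were 225 with TMM, 814 at 5 CPM, 51 at 100 CPM, 4373 with no filter, 1473 at 1.5-fold and 42 at 3-fold. In Müller glia they were 524 with free RNA subtracted, 55 at 100 CPM, 3517 with no filter, 1295 at 1.5-fold and 69 at 3-fold. In bipolar cells they were 441 thinned to 1000 UMIs, 395 with free RNA subtracted, 600 at 5 CPM, 38 at 100 CPM, 3042 with no filter, 1094 at 1.5-fold and 31 at 3-fold. In amacrine cells they were 552 at 5 CPM, 54 at 100 CPM, 3891 with no filter, 1002 at 1.5-fold and 77 at 3-fold. In cones they were 100 thinned, 57 at 100 CPM, 2702 with no filter, 804 at 1.5-fold and 59 at 3-fold. In microglia they were 287 thinned, 230 at 100 CPM, 3794 with no filter, 1760 at 1.5-fold and 341 at 3-fold.

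TMM moved the rod medians to 0.92 for the ATF4 list, 0.47 for tRNA synthetases, -0.024 for chaperones, -0.24 for glycolysis, -0.76 for the nuclear respiratory chain, -1.46 for mitochondrially encoded genes, -0.49 for phototransduction and -0.70 for ribosomal proteins. The mitochondrially encoded median in rods was also -1.36 and -1.08 at the 10% and 40% limits, -0.85 at 1000 UMIs, -1.15 with doublets kept, -1.27 scaled outside mitochondrial genes, -0.97 thinned and -1.11 at 100 CPM. The ribosomal median was -0.53 at the 10% limit and -0.35 at 1000 UMIs. Glycolysis was 0.095 at 5 CPM, -0.15 at 100 CPM and -0.075 with no filter, chaperones 0.071 at 100 CPM, and phototransduction -0.31 scaled outside mitochondrial genes. With free RNA subtracted, the Müller medians were 0.50 for immediate early genes and 0.24 for ribosomal proteins, both reversed, and -0.31 for homeostasis, which was 0.077 with doublets kept. Subtraction left the cone list at -0.69, microglial cholesterol synthesis at -2.75 and microglial immediate early genes at -2.64, the last at -1.52 with doublets kept. In amacrine cells it put immediate early genes at 8.36, a value set by the 0.5 counts added where subtraction left about none, and they stood at 0.86 thinned and 1.99 at 100 CPM. The ON cascade was -0.59 at the 40% limit, microglial lysosome genes 0.42 with no filter, and complement 0.60 at 100 CPM.

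Genes that reversed were Fos in 1 rod cluster at -0.36, Col11a1 in 1 bipolar cluster at -0.25, and Calb1 at 1.51, Cartpt at -1.48 and Tac1 at 1.35 in 1 amacrine cluster each. With free RNA subtracted, Btg2 stood at 0.11 and Glul at -0.14 in Müller glia and Tmem119 at -0.087 in microglia. Depth limits cones and microglia most, with 53 and 77 cells at 4 weeks.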
